A study of Homo sapiens with 32 samples.

Results

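U11 and U12 are the small nuclear RNAs with which the minor spliceosome recognises its introns. Crosslinks to both RNAs were examined in iCLIP libraries of mRNA export factors, over 2 annotated loci of 64449 annotated genes, 34410 of which held a tag in any library. The loci were ENSG00000270103 (U11) and ENSG00000270022 (U12), selected on their high tag levels in the Nxf1 libraries, so that their levels are described here without a test. In iCLIP, UV light joins proteins to the RNA they touch inside the cell, and the base where reverse transcription stops marks the contact. A tag is 1 cDNA, deduplicated by its random barcode, at 1 base.

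The 4 groups of 3 libraries, named Alyref, Chtop, Nxf1 and Control, were made from cells that the labels give as HEK293T FlpIn and the growth protocol as FlpIn-293, a human line of embryonic kidney origin into which a transgene can be recombined at a fixed site. Alyref-FLAG and Chtop-FLAG cells received 10 ng/mL tetracycline and Nxf1-FLAG cells 5 ng/mL, each for 48 h, while Control cells carried the FLAG construct alone and the labels give no dose for them. All groups were precipitated with an anti-FLAG antibody. Each protein was expressed from an inducible transgene in a stable line, and nothing states that the libraries of a group came from separate cultures, so p-values measure only the spread between these libraries.

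Alyref and Chtop are subunits of TREX, which couples transcription and processing to mRNA export, and Nxf1 is the export receptor. The minor spliceosome removes a small class of introns with distinct splice sites. U11 pairs with their 5′ splice site and U12 with their branch site, the pair acting together as a di-snRNP. Both RNAs are made by RNA polymerase II, carry a cap, and hold a uracil-rich Sm site around which the Sm protein ring assembles in the cytoplasm before the particle returns to the nucleus.

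Alyref libraries held between 81307 and 631704 tags, Chtop libraries between 47052 and 538844, Nxf1 libraries between 8134 and 179346, and Control libraries between 7017 and 46628. Replicate 1 was the shallowest of each group, and levels are given as tags per 1000000 tags of the library (CPM), so that 1 tag was worth 122.9 CPM in Nxf1 replicate 1 and 142.5 CPM in Control replicate 1. Between 97.35% and 99.5% of the positions in a library held a single tag. The identity of the cell line was not checked in these data.

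The U11 locus was chr1:28975112-28975242 on the plus strand of hg19 and the U12 locus chr22:43011250-43011913 on the plus strand. The annotation listed both as lncRNA genes. The U11 interval measured 131 nt. The U12 interval measured 664 nt, and its first 150 bases, chr22:43011250-43011399, were taken as the mature RNA, after the length of U12 in RefSeq. The sequences from GRCh37 are shown because the crosslinks are described by base along them, counted from 1 at the first annotated base, and the capitals mark the Sm-site motif.
U11: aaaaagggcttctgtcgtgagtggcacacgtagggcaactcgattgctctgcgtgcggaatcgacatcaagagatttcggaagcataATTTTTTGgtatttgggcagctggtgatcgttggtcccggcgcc
U12: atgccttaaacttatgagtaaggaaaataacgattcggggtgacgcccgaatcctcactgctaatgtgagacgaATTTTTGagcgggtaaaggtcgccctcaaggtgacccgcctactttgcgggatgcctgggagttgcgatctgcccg

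The motif searched for was ATTTTTG or ATTTTTTG on the strand of the gene. It lay at bases 88 to 95 of U11 and 75 to 81 of U12, and 3.871% of the 5115 annotated genes of 100 to 200 nt held it. Near the 5′ end, AAAGG, in the stretch of U11 known to pair with the 5′ splice site, lay at bases 3 to 7 and was held by 11.59% of those genes. TAAGGA, in the stretch of U12 known to pair with the branch site, lay at bases 19 to 24 and was held by 2.776%. Uracil made up 26.72% of U11 bases and 24% of U12 bases. In the predicted minimum free energy structures, 38.93% of U11 bases and 42.67% of U12 bases were unpaired. The 25 bases from each position onwards occurred once in the genome for 113 of 131 positions of U11 and 127 of 150 of U12, and for the other positions no 25-base run had more than 2 matches. Tags in the other positions depend on how uniquely mapped reads were kept.

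On either side of U11, the nearest annotated genes were the lncRNA TAF12-DT, 19 nt away on the plus strand, and GMEB1, 20048 nt away. For U12 they were POLDIP3, 282 nt away on the minus strand, and ATP5MGL, 23896 nt away. ENSG00000289517 and CYB5R3 overlapped the U12 interval on the minus strand, and only plus-strand tags were counted.

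U11 was crosslinked most often with Nxf1. The Nxf1 libraries held 4, 57 and 42 U11 tags for replicates 1, 2 and 3, or 491.8, 478.2 and 234.2 CPM. Control libraries held 2, 4 and 6 tags, or 285, 85.79 and 162.3 CPM. Alyref held 13, 33 and 27 tags, or 159.9, 52.24 and 44.75 CPM. Chtop held 3, 11 and 14 tags, or 63.76, 20.41 and 32.59 CPM. All Nxf1 libraries lay above all Alyref and Chtop libraries, whereas Nxf1 replicate 3 lay below Control replicate 1. Counting error was large in the shallow libraries, with exact 95% binomial limits of 134 and 1259 CPM for Nxf1 replicate 1 and of 34.52 and 1029 CPM for Control replicate 1.

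Mean U11 levels were 401.4 ± 145 CPM (SD, n = 3) for Nxf1, 177.7 ± 100.5 for Control, 85.63 ± 64.42 for Alyref and 38.92 ± 22.36 for Chtop. The ranges of Nxf1 and Control overlapped, as did those of Control and Alyref and of Alyref and Chtop. The Nxf1 mean was 2.259 times that of Control, 4.688 times that of Alyref and 10.31 times that of Chtop. In every group the shallowest library, replicate 1, had the highest U11 level, and most Alyref and Chtop libraries were deeper than those of Nxf1. Nxf1 replicate 2, with 119191 tags, held 478.2 CPM against 159.9 CPM in Alyref replicate 1, with 81307 tags. The part of depth in these ratios was not tested. Within replicate numbers 1, 2 and 3, which coincide with sets of sequencing lanes, Nxf1 exceeded Control each time. The 57 tags of Nxf1 replicate 2 also outnumbered those of every Alyref and Chtop library, although the deepest of those held 631704 tags in all against 119191.

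U12 showed the same order of means, with a smaller difference from Control. The Nxf1 libraries held 3, 39 and 29 tags in the whole interval, or 368.8, 327.2 and 161.7 CPM. Control held 0, 11 and 7 tags, or 0, 235.9 and 189.3 CPM, and 3 tags in Control replicate 1 would have been 427.5 CPM. Alyref held 10, 34 and 20 tags, or 123, 53.82 and 33.15 CPM. Chtop held 4, 24 and 12 tags, or 85.01, 44.54 and 27.93 CPM. Every Nxf1 library again lay above every Alyref and Chtop library, while the Nxf1 and Control ranges overlapped and Nxf1 replicate 3 lay below Control replicates 2 and 3. The ranges of Control and Alyref and of Alyref and Chtop overlapped too. Within replicate numbers, Nxf1 exceeded Control in replicates 1 and 2 and not in replicate 3.

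Mean U12 levels were 285.9 ± 109.6 CPM (SD, n = 3) for Nxf1, 141.7 ± 124.9 for Control, 69.99 ± 47.05 for Alyref and 52.5 ± 29.36 for Chtop. The ratio of the Nxf1 mean to the Control mean was 2.017, but it fell to 1.166 when the tags of the 3 libraries were summed, where Control replicate 1, with no U12 tag at a depth of 7017, weighs least. The same ratio of summed tags for U11 was 2.536. The Nxf1 mean was 4.085 times that of Alyref and 5.446 times that of Chtop. Within Nxf1, Alyref and Chtop the shallowest library, replicate 1, again had the highest level, and the part of depth was not tested. RNA abundance was not measured in these libraries, and its part in these levels was not tested.

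**Figure D1:**
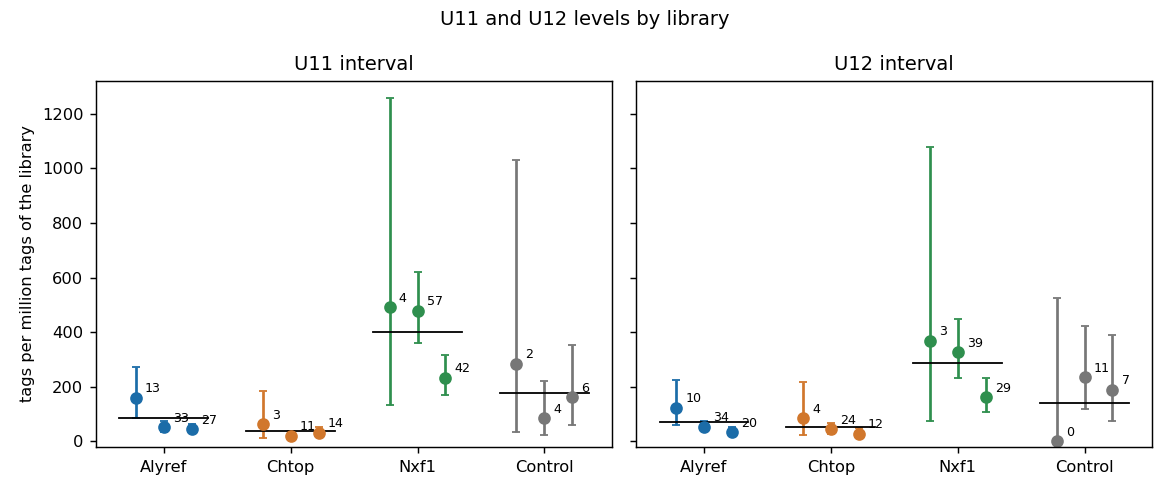
Tags as CPM of the library (linear axis) in the U11 interval (left) and the U12 interval (right), with 1 point per library in the order of replicates 1 to 3, its raw number of tags beside it, exact 95% binomial intervals as bars, and the group mean as a line. Nxf1 libraries lie above the Alyref and Chtop libraries for both RNAs and overlap with Control, and the intervals are widest in replicate 1 of Nxf1 and Control.

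Most tags of a library lay at a base of their own. The 57 U11 tags of Nxf1 replicate 2 lay at 47 bases, with at most 3 at any base, and the 27 of Alyref replicate 3 lay at 27 bases. Similarly, the 39 U12 tags of Nxf1 replicate 2 lay at 38 bases. The tag number of such short RNAs was therefore close to the number of different bases hit, and whether this limits the deeper libraries was not tested.

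Summed over the libraries of a group and taken per nucleotide, U11 ranked 6th of 19411 genes with a tag in Nxf1, 19th of 24122 in Alyref, 24th of 22511 in Chtop and 28th of 12409 in Control. U12, over its full 664 nt, ranked 84th, 132nd, 85th and 87th in the same groups. Lengths here span the annotated gene with its introns, so that short genes without introns rank high. By tags alone, U11 ranked 97th with Nxf1, 4312th with Alyref, 6690th with Chtop and 1007th with Control. The ranks of U12 by tags were 268th, 4814th, 5300th and 462nd. The U12 interval was not evenly used. Its first 150 bases held 186 of 193 tags, or 124 tags per 100 nt, and the other 514 bases held 7, or 1.362 per 100 nt.

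Along U11, tags gathered at the Sm site. Bases 86 to 101, the motif with the 2 bases before it and the 6 after, make up 12.21% of the RNA and took 94 of the 216 tags (43.52%). This stretch and those below were outlined after the profiles were seen and are given without a test. Bases 86 to 101 took 32 of 73 Alyref tags (43.84%, 95% Wilson interval 33.05 to 55.24), 22 of 28 Chtop tags (78.57%, 60.46 to 89.79), 33 of 103 Nxf1 tags (32.04%, 23.81 to 41.56) and 7 of 12 Control tags (58.33%, 31.95 to 80.67). The Control tags lay in this stretch too, in each of its 3 libraries. On the CPM scale of the summed libraries, however, the stretch held 107.6 CPM with Nxf1, 77.24 with Control, 24.31 with Alyref and 21.66 with Chtop. The most used base of the RNA was A at base 88, the first of the motif, with 12 tags from 9 libraries.

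The first 10 bases of U11, which hold AAAGG, make up 7.634% of the RNA and took 24 of the 216 tags (11.11%). They took 10 Alyref tags (13.7%), 3 Chtop tags (10.71%), 10 Nxf1 tags (9.709%) and 1 Control tag (8.333%). The next stretch held tags at close to its share of the RNA or below it. Bases 11 to 50 made up 30.53% of the bases and took 57 of the 216 tags (26.39%), with 22 Alyref tags (30.14%), 2 Chtop tags (7.143%), 31 Nxf1 tags (30.1%) and 2 Control tags (16.67%). The summed level there was 101.1 CPM with Nxf1 and 22.07 CPM with Control. For Nxf1 the tags of this stretch numbered 2, 19 and 10 in replicates 1, 2 and 3, and for Control 1, 0 and 1.

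The last stretch, bases 102 to 131 behind the Sm site, makes up 22.9% of the RNA, and most of its 22 tags came from Nxf1, whose share of tags there was still below that of the bases. It took 18 of 103 Nxf1 tags (17.48%, Wilson interval 11.35 to 25.94), 3 of 73 Alyref tags (4.11%, 1.407 to 11.4), 0 of 28 Chtop tags (upper limit 12.06%) and 1 of 12 Control tags (8.333%, 1.487 to 35.39). The Nxf1 tags came from replicates 2 and 3, with 12 and 6, while replicate 1 had 0 of its 4 there. Each Alyref library had 1. They were at bases 102 to 119, among them T at bases 112 and 118 and A at base 106, with 3 Nxf1 tags each. Bases 51 to 85, 26.72% of the RNA, took only 19 of the 216 tags (8.796%). The study's methods kept only reads longer than 15 nt. A cDNA from the last bases of the RNA is too short for that unless it runs past the annotated end. All shares of bases given here include those last bases.

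The single most tagged position was the base just before U11, which lies outside the interval and is not counted above. It held 1, 5 and 3 tags in Alyref replicates 1, 2 and 3, 0, 2 and 1 in Chtop, 0, 4 and 5 in Nxf1, and 0 in each Control library. The deposited position is as a rule the base before the cDNA, so that a tag there belongs to a cDNA reaching the first base of the RNA. The base before U12 held 2 Alyref tags, 3 Nxf1 tags and none from Chtop or Control. The 49 nt upstream of that base held no tag in any library for either RNA.

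**Figure D2:**
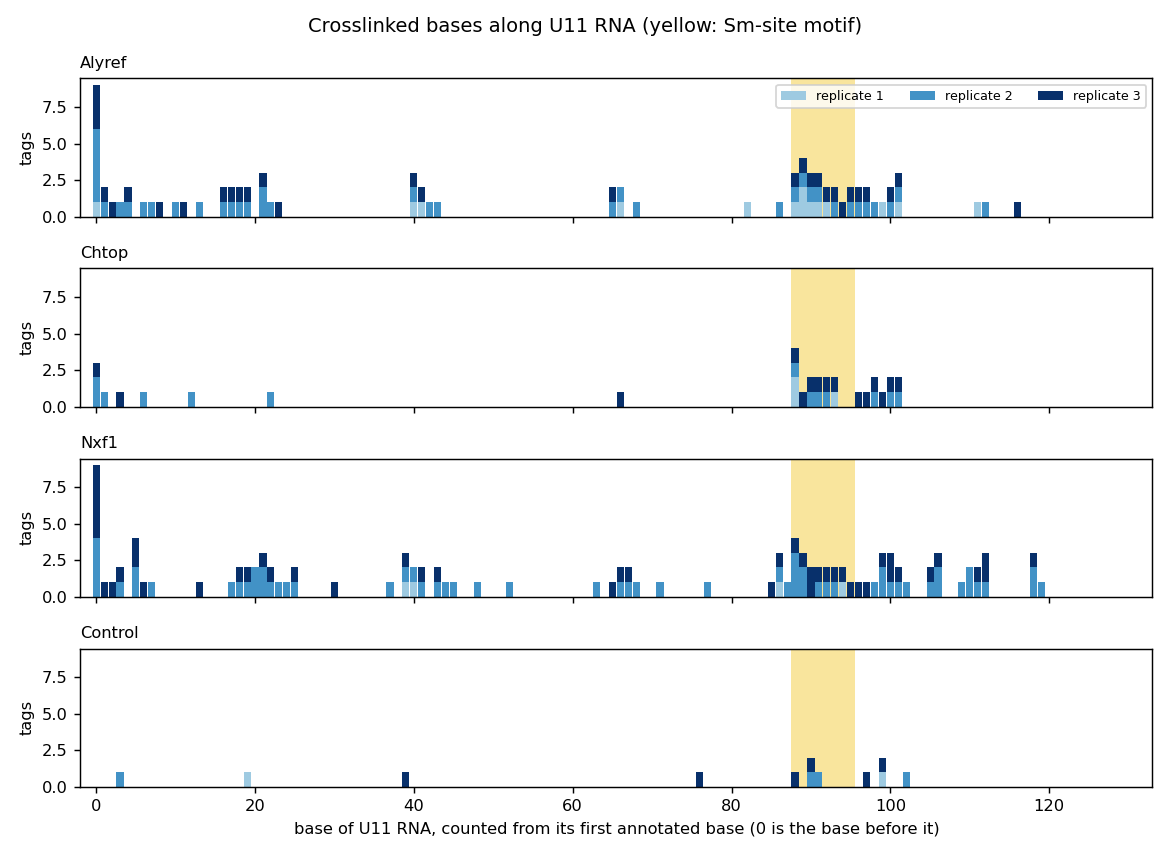
Tags at each base of U11, with 1 panel per group, bars stacked by replicate (light, middle and dark blue for replicates 1, 2 and 3), the base of the RNA on the horizontal axis and the number of tags on the vertical axis, and the Sm-site motif in yellow. All groups have tags in and just after the motif, the base before the RNA holds 9 tags each for Alyref and Nxf1, and bases 102 to 131 hold 18 Nxf1 tags against 3, 0 and 1 for Alyref, Chtop and Control.

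Tags gathered in several stretches of U12, of which 3 are outlined by group here. A further one lay at bases 60 to 65, which held 5, 4, 6, 2, 2 and 4 tags in turn. It falls within bases 29 to 70, which took 35 of 186 tags (18.82%) against 28% of the bases. Around the Sm motif of U12, bases 71 to 82 make up 8% of the mature RNA and took 47 of 186 tags (25.27%). They held 16 of 60 Alyref tags (26.67%, Wilson interval 17.13 to 39.01), 13 of 38 Chtop tags (34.21%, 21.21 to 50.11), 11 of 70 Nxf1 tags (15.71%, 9.008 to 25.99) and 7 of 18 Control tags (38.89%, 20.31 to 61.38). The summed level was 35.87 CPM with Nxf1 and 77.24 CPM with Control, so that Control was the higher of the pair here. T at base 76, the first uracil of the motif, had 11 tags from 10 libraries, the most of any base in U12.

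The second ran from before TAAGGA (bases 19 to 24), in the stretch that pairs with the branch site, to just past it. Its most tagged bases were base 23 within TAAGGA, with 8 tags, and bases 12 and 13 ahead of it, with 7 and 6. Bases 11 to 28 took 16 Alyref tags (26.67%), 7 Chtop tags (18.42%), 20 Nxf1 tags (28.57%) and 4 Control tags (22.22%), against 12% of the bases. Wilson intervals ran from 9.222 to 33.42 with Chtop and from 9.001 to 45.21 with Control. Nxf1 had 19.32 to 40.05 and Alyref 17.13 to 39.01. Since this stretch was outlined after the profiles were seen, these intervals cannot test its share against the 12%. They also pool the tags of 3 libraries. The 20 Nxf1 tags came from replicates 2 and 3, with 12 and 8, and the 4 Control tags all from replicate 2. The summed level was 65.22 CPM with Nxf1 and 44.14 CPM with Control.

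The third was narrow. Bases 114 to 121, the 8 bases past the Sm site with the most tags together, make up 5.333% of the RNA and took 34 of 186 tags (18.28%), namely 10 from Alyref (16.67%, Wilson interval 9.313 to 28.03), 5 from Chtop (13.16%, 5.754 to 27.33), 16 from Nxf1 (22.86%, 14.59 to 33.95) and 3 from Control (16.67%, 5.837 to 39.22). Of the bases with tags in this stretch, base 121 was paired in the predicted structure and the others were unpaired. It lies in the 3′ stem-loop region, where RNPC3, a protein of the di-snRNP, is known to bind. Nxf1 tags numbered 2, 7 and 7 in replicates 1, 2 and 3, so that 2 of the 3 U12 tags of the shallowest Nxf1 library were here. The bases on either side held few tags, with 3 at bases 83 to 113, all from Nxf1, and 2 at bases 122 to 150. Since only reads longer than 15 nt were kept, a cDNA from the last bases of the mature RNA is too short to be counted. The scarcity of tags at those last bases therefore does not show a lack of contacts there. This limit does not reach bases 83 to 113 or the first of bases 122 to 150.

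**Figure D3:**
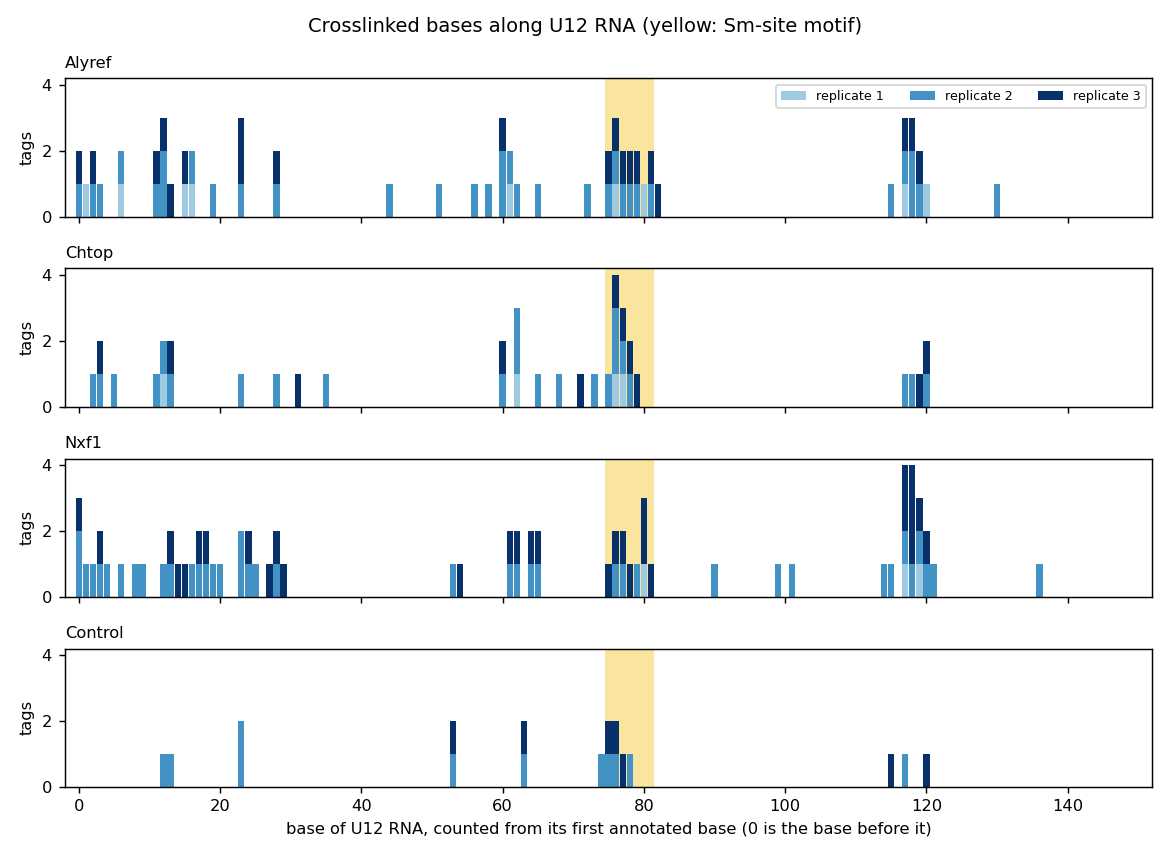
Tags at each of the first 150 bases of U12, drawn as for U11, with the number of tags on the vertical axis and the Sm-site motif in yellow. Tags gather at bases 11 to 28, at bases 71 to 82 around the Sm motif and at bases 114 to 121. In Control these stretches hold only 4, 7 and 3 tags. Bases 83 to 113 hold 3 tags in all.

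**Figure D4:**
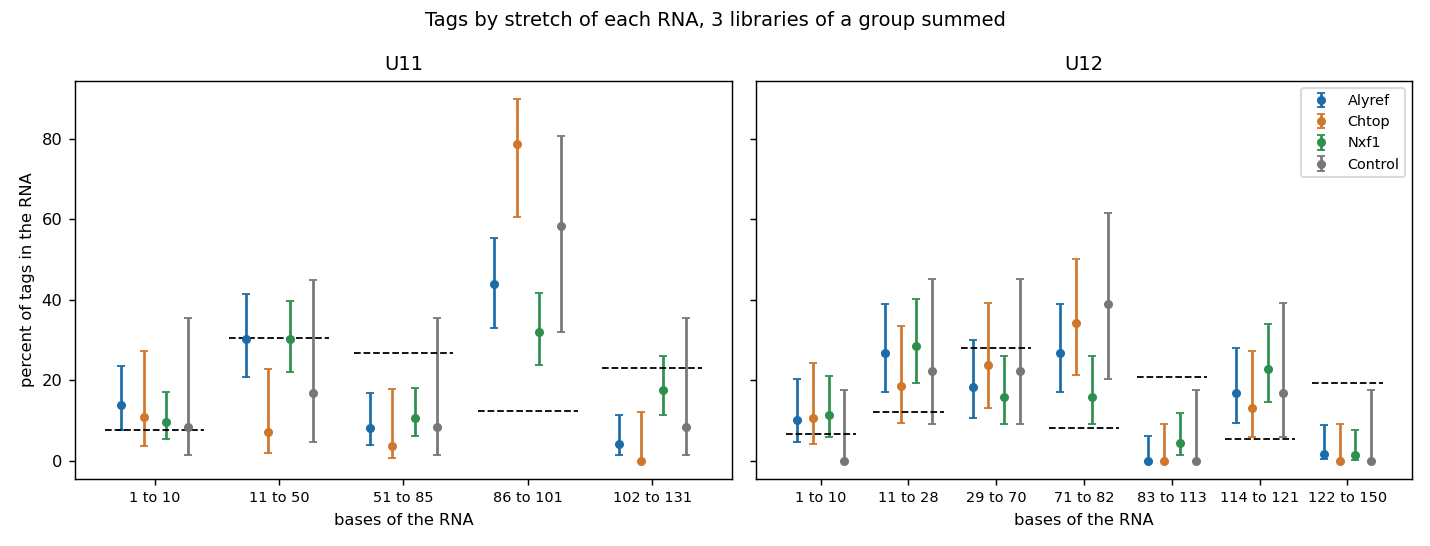
Percent of the tags in each RNA (vertical axis) that lie in successive stretches of bases (horizontal axis), with the 3 libraries of a group summed, 95% Wilson intervals as bars and the percent of the bases in the stretch as a dashed line. Bases 86 to 101 of U11 lie above their dashed line in every group, from 32.04% with Nxf1 to 78.57% with Chtop, and bases 114 to 121 of U12 also lie above theirs.

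Both RNAs were crosslinked mainly at unpaired bases, and at uracil more often than its share of the bases. Of all U11 tags, 85.65% were at bases unpaired in the predicted structure and 47.69% at uracil, against 38.93% and 26.72% of the bases. For U12 these were 80.11% and 52.15%, against 42.67% and 24%. The shares of bases include the 3′ end of each RNA, where reads longer than 15 nt can leave few tags. The unpaired share of tags was 81.55% for Nxf1, 86.3% for Alyref, 96.43% for Chtop and 91.67% for Control in U11, and between 76.67% and 86.84% in U12. Bases whose next 25 bases have a second copy in the genome gave 17.13% of U11 tags and 8.065% of U12 tags.

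Position along the RNA and the crosslinked base were not used to select the loci, and they were compared between Nxf1 and the other groups with two-sided exact permutation tests over libraries. A library with under 5 tags in the RNA gave no value, which left replicate 1 of Nxf1, Chtop and Control out of the shares of both RNAs and Control replicate 2 out of those of U11. The family had 8 comparisons, and after Benjamini-Hochberg adjustment the smallest p was 0.7619. With 2 Nxf1 libraries against 5 of Alyref and Chtop, the smallest p an exact test can give is 0.09524.

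The share of U11 tags past the midpoint of the RNA (the 3′ share) was 56.14% and 59.52% in Nxf1 replicates 2 and 3. It was 84.62%, 45.45% and 48.15% in Alyref replicates 1 to 3, 63.64% and 92.86% in Chtop replicates 2 and 3, and 83.33% in Control replicate 3. The Nxf1 values thus lay within the range of Alyref and Chtop. The mean of 57.83% ± 2.392 (SD, n = 2) differed from 66.94% ± 21.27 (n = 5) by less than the spread between libraries (exact permutation p = 0.7619, adjusted p = 1). The difference from the single Control value was -25.5 percentage points, and this design cannot go below an exact p of 0.6667.

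In U12 the 3′ share was 40.83% ± 5.647 (SD, n = 2) with Nxf1 and 42.23% ± 9.795 (n = 5) with the other factors (exact permutation p = 0.9524, adjusted p = 1). Against 2 Control libraries with a mean of 42.21% ± 21.12 the exact permutation p was 1, with 0.3333 the smallest possible.

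Uracil took 43.98% ± 5.139 (SD, n = 2) of Nxf1 tags in U11 and 53.45% ± 9.832 (n = 5) of those of Alyref and Chtop (exact permutation p = 0.381, adjusted p = 1). In U12 these were 45.6% ± 8.662 and 57.59% ± 5.224 (exact permutation p = 0.1905, adjusted p = 0.7619). Among the factor libraries, Nxf1 replicate 2 had the lowest value for both RNAs, but Nxf1 replicate 3 lay within the range of the other factors.

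U12 tags past the first 150 bases made up 2.564% and 0% of the interval in Nxf1 replicates 2 and 3. They made up 10%, 5.882% and 5% in Alyref and 4.167% and 8.333% in Chtop replicates 2 and 3. Both Nxf1 libraries were below all of these, a difference of -5.394 percentage points with an exact permutation p of 0.09524, the smallest possible, and an adjusted p of 0.7619. It rests on 7 tags in all, and both Control libraries with a value had 0%.

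The ratio of U11 to U12 tags is made of the same tag totals by which the loci were selected and is given without a test. On a log2 scale with 0.5 added to each count, it was 0.36, 0.54 and 0.53 in Nxf1 replicates 1, 2 and 3. It was 0.36, -0.04 and 0.42 in Alyref, -0.36, -1.09 and 0.21 in Chtop, and -1.35 and -0.21 in Control replicates 2 and 3. The Nxf1 mean was 0.48 ± 0.10 (SD, n = 3) and that of the other factors -0.08 ± 0.57 (n = 6), a difference of 0.56. Nxf1 replicates 2 and 3 were above all Alyref and Chtop libraries. All Nxf1 libraries were above Control replicates 2 and 3 (difference 1.26). Control replicate 1, left out for having 2 tags in both loci together, would have a ratio of 2.32, above every Nxf1 library, and with it the difference was 0.22.

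Among other short structured RNAs, levels per kb of RNA were compared, with the libraries of a group summed. U11 reached 2564 CPM per kb with Nxf1, and U12, over 150 nt, reached 1522. U4, the major spliceosome partner of U6, reached 3122 for RNU4-2 and 1573 for RNU4-1. RNU5B-1 and RNU5A-1, which encode U5 RNA of both spliceosomes, reached 2052 and 1321. RN7SK, which holds the elongation factor P-TEFb inactive, reached 1882, RNU7-1 of histone mRNA processing reached 1656, and RMRP, the RNA of RNase MRP, reached 1482. By uniquely mapped tags, U11 thus lay below RNU4-2 and above the others of these RNAs. Keeping only unique reads lowers RNAs with copies, such as U5. Copies were searched for in U11 and U12 only, so this order is uncertain.

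The ratio of Nxf1 to Control was 2.536 for U11 and 1.149 for mature U12. It was 1.247 for RNU4-2, 1.34 for RNU4-1, 1.348 for RNU5B-1, 0.9921 for RNU5A-1, 1.612 for RMRP, 0.9456 for RNU7-1 and 0.6342 for RN7SK. Against Alyref, the ratio was 6.056 for U11, 5.008 for U12, 6.036 for RNU4-2, 6.081 for RNU4-1 and 2.349 for RN7SK. It was 3.706 for RMRP, 3.406 for RNU5B-1, 2.46 for RNU5A-1 and 2.289 for RNU7-1. All of these RNAs were thus higher with Nxf1 than with Alyref. So U11 had the highest ratio to Control of the RNAs with more than 3 tags in both groups, from the contrast for which it was selected, and a ratio to Alyref close to those of U4. RNU1-1 held 1 tag and RNU6-1 held 17 over all groups, and both belong to families of near-identical copies, so that their tags are uncertain.

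The other RNAs of the minor spliceosome had fewer tags than U11 and U12 with Nxf1 and with Control. RNU6ATAC, which forms part of the catalytic core, held 6, 38 and 29 tags in Alyref replicates 1, 2 and 3, 5, 17 and 11 in Chtop, 0, 5 and 12 in Nxf1, and 0, 2 and 0 in Control. Its level of 440 CPM per kb with Nxf1 was 0.9996 times that with Alyref, unlike U11 and U12. RNU4ATAC, which delivers it to the spliceosome, lies within the lncRNA gene CLASP1-AS1 on the same strand, held 17 tags with Alyref, 6 with Chtop, 11 with Nxf1 and 2 with Control, and its ratio of Nxf1 to Alyref was 2.777. No fold against Control was taken for either, with 2 tags in each case.

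**Figure D5:**
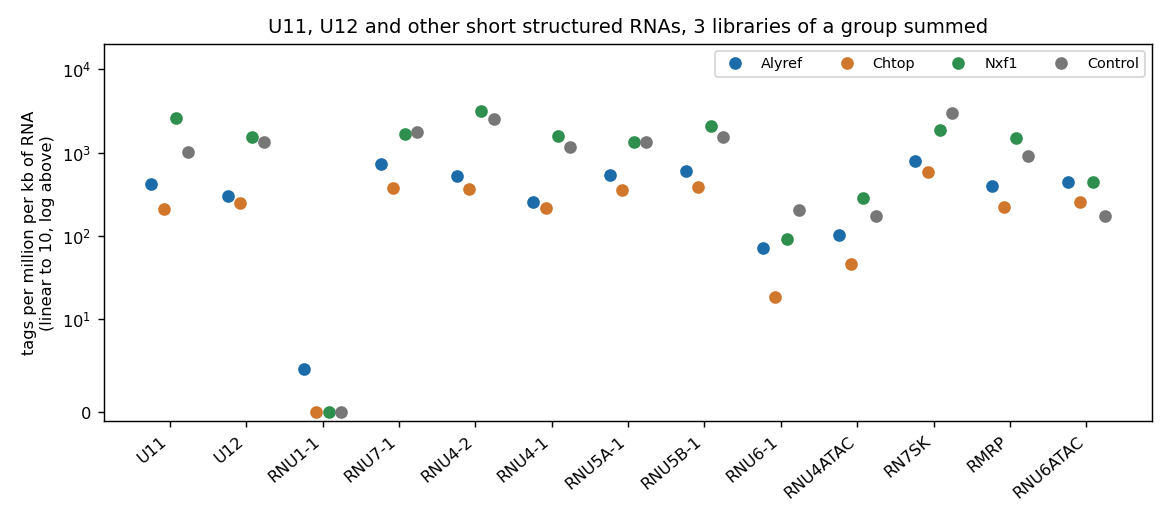
CPM per kb of RNA (vertical axis, linear to 10 and logarithmic above) for U11, U12 over 150 nt and other short structured RNAs, with the 3 libraries of a group summed to 1 point. U11 stands at 2564 with Nxf1 and 1011 with Control, U12 at 1522 and 1324, and RNU6ATAC at 440 with both Nxf1 and Alyref.

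The mRNAs and pre-mRNAs of minor spliceosome proteins were then examined, by the number of tags per gene. In all 3240 genes passed the filter on low counts. With edgeR's quasi-likelihood test, 0% of these were higher and 0.0309% (1 gene) lower with Nxf1 than with Control at an adjusted p under 0.05, and 3 genes in all with the replicate number as a block. At an unadjusted p under 0.05, 151 were higher and 74 lower, and DESeq2 called 0 higher and 1 lower. Against the mean of Alyref and Chtop, 6.02% (195 genes) were higher and 8.36% (271) lower, and with the size factors of DESeq2 in the same test 267 were higher and 204 lower.

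None of the 7 genes of di-snRNP proteins passed the filter. SNRNP35, a protein of the U11 particle, held 11 and 5 tags in Nxf1 replicates 2 and 3, 3, 15 and 11 in Alyref, 1, 10 and 9 in Chtop, and 1 in all of Control. SNRNP48, which contacts the 5′ splice site, held 42 and 40 tags in Alyref replicates 2 and 3, 51 and 44 in those of Chtop, and 4 and 5 in those of Nxf1. It held 0, 1 and 6 tags in Control replicates 1, 2 and 3. Its mean was 60.66 CPM with Alyref, 108.2 with Chtop, 20.48 with Nxf1 and 61.23 with Control. RNPC3, which bridges U11 and U12, had means of 47.71 CPM with Alyref, 28.31 with Chtop, 10.25 with Nxf1 and 14.3 with Control. SNRNP25, ZMAT5, PDCD7 and ZCRB1, the remaining di-snRNP proteins, had Nxf1 means of 12.11, 18.62, 13.03 and 7.452 CPM. In the same order, the means were 7.487, 6.959, 16.48 and 8.592 with Alyref and 3.25, 3.869, 23.46 and 3.25 with Chtop. With Control they were 7.149, 0, 7.149 and 7.149. SNRNP35 had means of 40.06 CPM with Nxf1, 26.29 with Alyref, 20.25 with Chtop and 7.149 with Control. So SNRNP35, SNRNP25 and ZMAT5 were highest with Nxf1, on few tags, and the other members were not. Nxf1 replicate 1 held no tag in any of these 7 genes.

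Of 9 other genes of minor spliceosome proteins, 1 was tested. RBM41, a relative of RNPC3 that binds minor spliceosome RNA, held 62 and 61 tags in Alyref replicates 2 and 3, 83 and 65 in those of Chtop, 4 and 8 in those of Nxf1, and 7 in all of Control. It was lower with Nxf1 than with the other factors by a log2 fold change of -1.23 (edgeR adjusted p = 0.0481), where 8.36% of all genes tested were lower. With the replicate number as a block the adjusted p was 0.0618, and without Nxf1 replicate 2 it was 0.243. Against Control the log2 fold change was -0.70 (edgeR adjusted p = 0.896). Of 7 genes of the Sm core, 1 was tested and 0 passed, SNRPB with a log2 fold change of 1.23 against the factors (edgeR adjusted p = 0.176) and -0.54 against Control (adjusted p = 0.935). The median log2 fold change of all genes tested was -0.02 against the factors and 0.09 against Control.

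By the correlation of log2 CPM over the 12 libraries among 3239 other genes, the gene most like U11 was RNU4-2, with a Pearson r of 0.858. It was followed by a Y RNA gene (ENSG00000200208, r = 0.85), the lncRNA ENSG00000270066 (r = 0.805), ODC1 (r = 0.802), which encodes ornithine decarboxylase, and RNU5F-1 (r = 0.793). For U12 they were another Y RNA gene (ENSG00000207386, r = 0.953), EYA4 (r = 0.933), RPL8 (r = 0.921), SORCS2 (r = 0.919) and RNU5E-4P (r = 0.912). U12 ranked 61st for U11, with r = 0.56, and U11 ranked 386th for U12. The libraries share their depth between all genes, and a single tag is worth most in the shallow libraries, so these values are a description. Y RNA and U5 genes have near-identical copies, and their tags are uncertain.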

How the data were processed

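iCLIP tags were analysed in 12 libraries, which the series lists as 32 lane runs merged by the authors. The authors deposited counts, the number of deduplicated tags at each base and strand. Per the submitters' processing notes and the study's methods, reads were handled with Bowtie 1.1.2, UMI-tools 0.5.3 and STAR 2.4.2a on hg19, and uniquely mapped reads were kept. Keeping unique reads lowers RNAs with copies. Pooled tables of each group were not used here. Of the columns with values per library, 0 were left unused.

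Tags were summed over each interval on its strand and divided by the library total (CPM). Genes followed GENCODE release 44 mapped to GRCh37, and tags in more than 1 gene were left out of gene counts. RNU2-1 and RPPH1 had no entry of that name and were not used here. Tests across genes used edgeR 4.0.16 (quasi-likelihood F-test, TMM, filterByExpr, all 12 libraries) in R 4.3.3, with DESeq2 1.42.0 as an alternative, and both the gene and the permutation tests were tested on simulated data. Structures came from RNAfold 2.7.2. Permutation tests used scipy 1.17.1 and numpy 2.4.6 in Python 3.11.15, with the smaller tail doubled. Tests first planned for the ratio of U11 to U12 were dropped, since it is made of the totals that selected the loci. Correlations used log2 CPM with a prior count of 2. Intervals cover counting error only, at 95%, and 3 tags were taken as the floor of a library.

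Replicate numbers coincide with sets of sequencing lanes, each holding all 4 groups. Deviations of same-numbered libraries from their group means correlated by -0.178 to 0.253 across genes.

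The loci and gene lists were chosen with earlier results of these data known. Named were the minor spliceosome RNAs, the di-snRNP proteins, other list members called, the 5 genes most like each RNA, the nearest genes and a set of short RNAs. Alternatives were other count minimums, normalizations, no filter, the replicate block, and each library left out.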

Additional observations from a re-analysis of the deposited data

How the results depend on the processing

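Few tags limit these comparisons, since replicate 1 of Nxf1 held 4 U11 and 3 U12 tags and that of Control 2 and 0. The share of U12 tags past the midpoint turned from lower to higher with Nxf1 than with the other factors when a minimum of 1 tag admitted all libraries (17.03 percentage points, a minimum chosen after seeing the data), and ranged from -5.392 to 2.594 with 1 library left out. Against Control it was 13.56 with a minimum of 10 tags and 18.35 with 1, and ranged from -16.31 to 13.56 with 1 library left out. The U11 uracil difference was 4.228 with a minimum of 1 tag. Only with a minimum of 1 tag against the factors could an exact permutation p fall under 0.05 (smallest possible 0.02381). There it ranged from 0.09524 to 0.6667 over the shares. The other alternatives had too few libraries to reach 0.05, so they cannot decide the question. The ratio of U11 to U12 stayed higher with Nxf1 in all alternatives run, from 0.36 to 0.66 against the factors and from 0.22 (with a minimum of 1 tag, which admits Control replicate 1) to 1.83 against Control.

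The ratio of Nxf1 to Control in mean level ranged from 1.795 to 3.236 for U11 and from 1.345 to 3.021 for U12 with 1 library left out.

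Genes called against Control numbered 0 with no filter, 3 with the replicate block, 0 with tags in more than 1 gene counted for each, and 0 to 2 with 1 library left out. Against the other factors, DESeq2 called 108, the block 466 as before, and leaving out 1 library gave 52 (without Nxf1 replicate 3) to 666, with 127 without Nxf1 replicate 2, 219 without Alyref replicate 2 and 283 without Alyref replicate 3. With DESeq2's size factors 56.69% of calls were higher, against 41.85%, and with no filter 52.47%. RBM41 kept its direction against the factors but lost its call in 10 of 17 alternatives, and against Control its log2 fold change was 1.11 without Control replicate 2 (range -0.96 to 1.11 with 1 library left out). Within replicate numbers (the replicate block), the U11 to U12 ratio differed by 0.56. The block was run for the shares, RBM41 and SNRPB, and of these it changed the call of RBM41. The causes of these changes were not tested.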
